A study of Mus musculus with 670 samples.

Results

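Runx2-positive cells of 2-month-old mice are the single skeletal cells in which the transcription factor Runx2 was at 10 CPM or more, and they were set against cells of the same plates with 0 reads of it. CPM is a read count scaled to the same total in every cell. The members were chosen by this measured level. Of 670 wells in the whole study, 35.4% held a cell that passed, with at least 1000 genes, at least 50000 reads and under 20% of reads from mitochondrially encoded genes. Of the passing cells 64.98% were of 2 months, and of these 36 were Runx2-positive, 110 were Runx2-negative and 8 had reads below the limit and entered neither group. The study sorted skeletal stem cells from digested long bones of male mice by flow cytometry and sequenced them singly by SmartSeq2, a full-length method without molecular identifiers. The cells were not cultured or treated, and other plates held cells of postnatal day 3 and of 24 months. The labels give no strain and name no animal, so each age stands as a single sample without p-values, and every interval covers counting error only.

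Runx2 is a DNA-binding factor of the Runt family that pairs with Cbfb. It is needed for osteoblasts to form, and in the growth plate it also drives cartilage cells to enlarge and mature before bone replaces them. Genes textbooks place under its control include those of osteocalcin (Bglap), osteopontin (Spp1), bone sialoprotein (Ibsp) and collagenase 3 (Mmp13). Bglap and alkaline phosphatase (Alpl) were the markers set for the split.

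The 250 bases before a RefSeq start (GRCm38.p6) are shown for 3 of these genes, whose levels are compared below. The windows shown are ones that held a match, and for Spp1 the first of 2 starts is shown. Capitals mark the Runx core motif ACCACA, searched on both strands (TGTGGT on the other), which 14% of the 32851 promoters of the same length in the RefSeq table hold at least once. The windows lie at chr5:104434861-104435110 on the plus strand for Spp1, chr9:7272264-7272513 on the plus strand for Mmp13 and chr3:88384467-88384716 on the minus strand for Bglap.
Spp1: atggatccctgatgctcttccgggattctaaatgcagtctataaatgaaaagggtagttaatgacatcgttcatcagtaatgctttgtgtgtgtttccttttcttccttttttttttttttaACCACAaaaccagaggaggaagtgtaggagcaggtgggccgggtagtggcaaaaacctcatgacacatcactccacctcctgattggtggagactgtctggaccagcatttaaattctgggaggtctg
Mmp13: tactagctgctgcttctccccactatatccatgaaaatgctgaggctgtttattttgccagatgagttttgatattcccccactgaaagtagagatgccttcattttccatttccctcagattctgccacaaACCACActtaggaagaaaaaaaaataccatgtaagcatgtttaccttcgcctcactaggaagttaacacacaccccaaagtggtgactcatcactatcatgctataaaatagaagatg
Bglap: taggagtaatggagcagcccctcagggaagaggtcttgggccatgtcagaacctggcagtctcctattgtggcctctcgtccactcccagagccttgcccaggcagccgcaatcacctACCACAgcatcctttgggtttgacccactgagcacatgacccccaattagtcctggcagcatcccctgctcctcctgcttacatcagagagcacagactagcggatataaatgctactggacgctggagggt
Each window shown holds 1 match, and the window of the second Spp1 start held none. A match in these letters is a description and not a binding site. The windows of Ibsp, Alpl and Pth1r held no match at any of their listed starts.

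Runx2 lies on chromosome 17 (chr17:44495987-44814797, minus strand, protein-coding, GRCm38). Because Runx2 chose the cells, its level is a description. Positive cells made up 2 of 15 passing cells on plate 1 (13.3%, exact 95% binomial interval 1.66 to 40.5), 14 of 70 on plate 3 (20%, 11.4 to 31.3) and 20 of 69 on plate 4 (28.99%, 18.7 to 41.2). The intervals of the 3 plates overlapped, and each plate carries its own batch label. Runx2 ran from 30.5 to 3539 CPM in the positive cells, with a median of 332. The plate medians were 295, 326 and 340 CPM. No cell lay close to the limit from above. The lowest positive cell had 36 reads (30.5 CPM), and the cell nearest to the limit from below had 1 read (9.86 CPM). A negative cell with fewer than 300000 reads could hold 10 CPM of Runx2 and give fewer than 3 reads, and 24 of the 110 negative cells were that shallow.

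**Figure D1:**
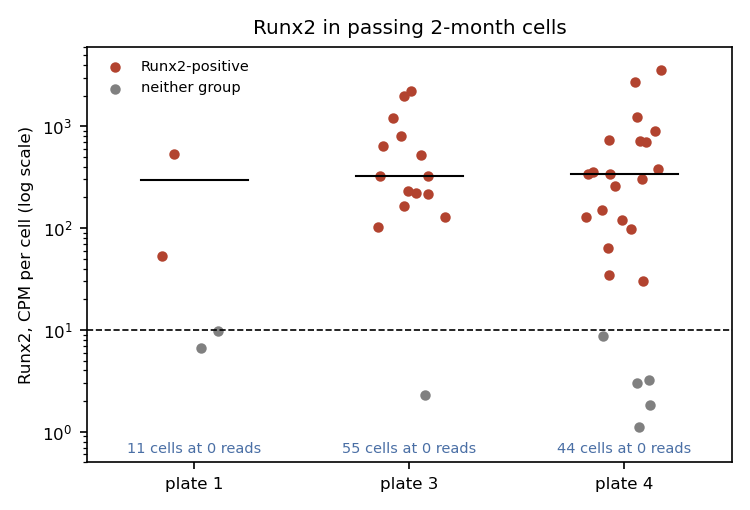
Runx2 in each passing 2-month cell with a read, in CPM on a log axis, by plate. Points are cells, bars are medians of the positive cells and the dashed line is the limit of 10 CPM. The 36 positive cells sit between 30.5 and 3539 CPM, and 110 cells had 0 reads.

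Pooled over plates, positive cells were somewhat deeper than negative cells and held more genes. The median was 833182 reads against 677689, and 2024 genes against 1701. Depth differed in direction between the plates used for the folds. Median reads were 591151 in positive and 778545 in negative cells on plate 3, and 894889 and 619894 on plate 4. With each cell thinned to 50000 reads the medians were 1599 and 1255 genes, 1438 against 1252 on plate 3 and 1735 against 1258 on plate 4. Mitochondrial reads were alike, at medians of 0.900% and 0.990%. Detection shares are therefore also given after thinning for some genes, and the part of depth in the folds was not tested. Thinning left positive cells with more genes, so a larger detected share in them need not be particular to a gene. No detected share over all genes is given here. Markers of blood and vessel cells were scarce in both groups. Of 6 haematopoietic markers, 5 had 0 CPM in the positive cells on plates 3 and 4, and 35 of 36 positive and 97 of 110 negative cells had no read of any. The summed endothelial markers stayed at or under 3.31 CPM in positive cells, and 34 of 36 had 0. In 1 negative cell the 6 erythroid markers summed to 60329 CPM. Pericyte and smooth muscle markers were more common: they summed to over 1000 CPM in 2 positive and 20 negative cells, and to 0 in 11 and 43. Macrophage and osteoclast markers did so in 1 and 5 cells and were at 0 in 30 and 83. Their part in the folds was not tested.

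Across genes, reads were summed by group within plates 3 and 4, the plates with at least 5 cells in each group, and the fold is the log2 ratio of the 2-plate means after adding 1 CPM. A gene was compared where a group had at least 10 CPM and a read in at least 20% of its cells. It was called where the fold was at least 2 overall and at least 1.5 in the same direction on both plates, and where the group with the higher level itself passed the limits of level and detection. Of 3376 genes compared besides Runx2, 333 (9.86%) were higher in positive cells and 6.72% were lower. The median log2 fold over all of them was 0.09. These calls are a rule of size and carry no error rate, and in simulated cells the rule also called unchanged genes, more of them lower than higher. Other abundant genes were changed in 1 group of that simulation, which shifts the totals and moves unchanged genes lower. Its share called lower can therefore not be set against the real one. That shift does not account for the unchanged genes called higher. The real calls rested in part on single cells. Without the cell with most reads of a gene in each group and plate, 4.53% of compared genes were higher and 16.3% (408) lower. With plate 1 added, 98 genes were higher, 85 of them among the 333. On plate 1, with 2 positive cells, levels are given as values and entered no call.

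Most Runx2-positive cells carried cartilage genes, as most negative cells did. Chondromodulin (Cnmd), a secreted cartilage glycoprotein, reached 10 CPM in 28 of 36 positive cells (77.8%, 60.8 to 89.9) and in 76 of 110 negative cells (69.1%, 59.6 to 77.6). At least 3 of 5 cartilage genes did so in the same numbers of cells. Sox9, the master factor of cartilage, reached it in 31 of 36 and 92 of 110 cells. Of the 20 members of the cartilage list, 19 were compared and none was called, against 9.86% and 6.72% of all genes. Their median log2 fold was 0.04, close to the 0.09 of all genes. Summed over the list in each cell, however, the median was 105159 CPM in positive and 61329 in negative cells, with overlapping ranges. The list summed over a group gave 92592 and 99462 CPM on plate 3, 123072 and 100578 on plate 4, and 152981 and 72529 on plate 1. Type II collagen (Col2a1) stood at 43546 CPM in positive and 49518 in negative cells on plate 3, and at 67496 and 51306 on plate 4. Aggrecan (Acan), the main cartilage proteoglycan, had 1261 and 1183 CPM on plate 3 and 1795 and 1546 on plate 4. Matrilin 3 (Matn3), a matrix adaptor protein, was found in more positive than negative cells (24 of 36 against 50 of 110 with a read) at summed levels of 3171 and 3429 CPM on plate 3 and 4990 and 2935 on plate 4.

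**Figure D2:**
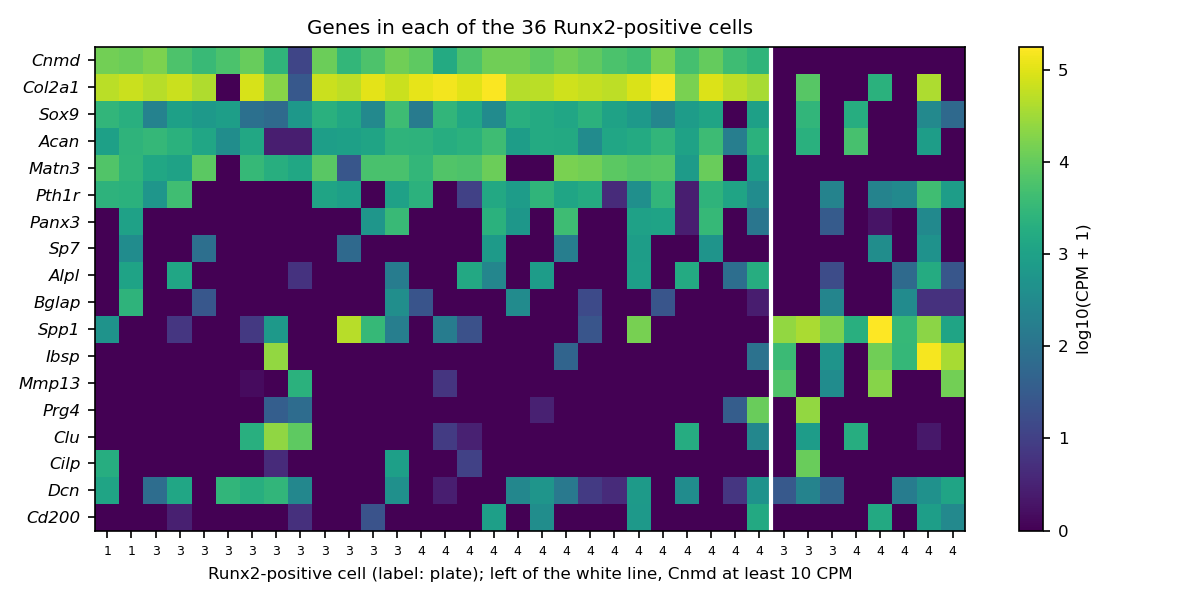
Level of 18 genes (rows) in each of the 36 Runx2-positive cells (columns, labelled by plate), as log10(CPM + 1). The 28 cells left of the white line have Cnmd at 10 CPM or more, and the 8 cells right of it all have Spp1 at 1186 CPM or more.

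The remaining 8 positive cells, without Cnmd at 10 CPM, all carried Spp1, at 1186 to 176871 CPM. This division of the cells was made after their values were seen. Ibsp reached 10 CPM in 6 of these 8 cells and Mmp13 in 4. Among the 28 positive cells with Cnmd, Spp1 reached 10 CPM in 9, Ibsp in 3 and Mmp13 in 1. Negative cells without Cnmd had Spp1 at 10 CPM in 11 of 34 (32.4%, 17.4 to 50.5), where all 8 positive cells had it (interval 63.1 to 100). Matn3 had 0 reads in all 8 of these positive cells, while 24 of the 28 with Cnmd had it. It was also rare in negative cells without Cnmd, at 10 CPM in 2 of 34, so this trait is not particular to positive cells. Of those 34 negative cells, 11 had Ibsp and 6 had Mmp13 at 10 CPM. Their intervals (17.4 to 50.5 and 6.76 to 34.5) overlapped those of the 8 positive cells (34.9 to 96.8 and 15.7 to 84.3). The 8 cells came from plate 3 (H17, D1 and L9) and plate 4 (D6, L14, H22, H16 and B16). The cell from well D1 also held 24519 CPM of Prg4. Some of the 8 cells held cartilage genes: Sox9 and Acan were both present in D1, D6 and H16. Col2a1 was present in D1 (7727 CPM), H16 (40897 CPM) and L14 (2195 CPM).

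The genes of bone matrix were not higher as a group in Runx2-positive cells on both plates. Of 20 list members, 12 were compared, 1 was higher (Spp1) and 2 were lower (Enpp1 and Omd), against 9.86% and 6.72% of all genes, with a median log2 fold of -0.11. The plate medians were -1.78 on plate 3 and 0.14 on plate 4. The list summed over positive and negative cells gave 37065 and 44191 CPM on plate 3, 62337 and 42800 on plate 4, and 54803 and 65297 on plate 1. Summed in each cell, the median was 34431 CPM in positive and 29211 in negative cells, with overlapping ranges. With Runx2 at 100 CPM or more the median was -1.12 and 4 were lower, Ibsp among them, where 7.91% of all genes were lower. Bglap, a matrix protein of osteoblasts and a marker set for the split, had 15.1 CPM in positive and 49.6 in negative cells on plate 3, and 16.4 and 35.3 on plate 4. On plate 1 it had 1969 and 1282 CPM, and 1 positive cell gave all the positive reads. Its log2 fold of -1.38 was not called, since Bglap passed 20% detection only in the group where it was lower. The direction turned when cells with 1 read of Runx2 or more were taken as positive (201.8 against 42.4 CPM, log2 fold 2.22) and when plate 1 was added (0.55). Bglap was found in 12 of 36 positive cells (33.3%) and 18 of 110 negative cells (16.4%). It was thus found in a larger share of positive cells but at low levels, with a median of 24.5 CPM among positive cells with a read against 99.5 among negative ones. Bglap2 is nearly identical to Bglap, and reads of the pair cannot be assigned with certainty.

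Alpl, the phosphatase that frees phosphate for mineral, had 130.6 CPM in positive and 589 in negative cells on plate 3, and 502 and 491 on plate 4. Its fold differed in direction between the plates and was not called, and its direction over plates turned from -0.77 to 0.42 when plate 1 was added. On plate 1 it had 809 CPM in positive cells and 0 in negative cells. Ibsp, a mineral-binding sialoprotein, stood at 1429 and 7422 CPM on plate 3 and at 11202 and 4896 on plate 4, also in opposite directions. Type I collagen (Col1a1) had 187.5 and 912 CPM on plate 3 and 3647 and 767 on plate 4. These genes sat in few cells at high levels: the cell with most reads gave 65.3% of the Ibsp reads and 58.4% of the Col1a1 reads of positive cells. At least 3 of 8 bone genes reached 10 CPM in 5 of 36 positive cells (13.9%, 4.67 to 29.5) and in 10 of 110 negative cells (9.09%, 4.45 to 16.1). Bglap and Alpl, the markers set for the split, were thus not higher in level on both plates. The 36 cells are named here by Runx2 alone.

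Spp1, an acidic matrix protein of bone and hypertrophic cartilage, had 4229 CPM in positive and 1928 in negative cells on plate 3, and 14213 and 7250 on plate 4. Positive cells were higher on both plates, and the log2 fold was 1.01. Plate 1 went the other way, with 124.9 CPM in positive and 4355 in negative cells. The level rested on few cells, since 1 positive cell gave 69.96% of the positive reads. Without the cell with most Spp1 reads in each group and plate the log2 fold was -0.04, and the call held in 4 of 14 alternatives. Counting each cell once, Spp1 was found in 19 of 36 positive cells (52.8%, 35.5 to 69.6) and 28 of 110 negative cells (25.5%, 17.6 to 34.6). At 50000 reads per cell the shares were 44.4% and 22.7%. At 10 CPM, 7 of 14 positive and 15 of 55 negative cells had it on plate 3, and 9 of 20 and 9 of 44 on plate 4.

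Mmp13, the collagenase that opens hypertrophic cartilage and bone matrix, had 551 CPM in positive and 331 in negative cells on plate 3, and 2197 and 423 on plate 4. Its log2 fold was 1.86. It was at 0 in the positive cells of plate 1 and at 0.06 CPM in the negative ones. Only 7 of 36 positive cells (19.4%, 8.19 to 36.02) and 8 of 110 negative cells (7.27%, 3.19 to 13.8) had a read, and the intervals overlap. Without the cell with most reads in each group and plate the log2 fold was 2.14 but no longer met the rule. The call was lost in 8 of 14 alternatives, with a log2 fold of 0.65 where cells with 500 genes were let in and 0.73 without plate 4. Of the 12 genes of the hypertrophic cartilage list, 8 were compared and these 2 were higher, with none lower, against 9.86% and 6.72% of all genes, and a median of 0.14. Of these 2, Mmp13 was compared only through the group where it was higher. With all 3 plates none of them was called. Collagen X (Col10a1), the defining gene of hypertrophic cartilage cells, had a read in 1 of 36 positive and 3 of 110 negative cells and was not compared.

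The PTH receptor gene Pth1r, which slows cartilage maturation when its ligand binds, was found in 26 of 36 positive cells (72.2%, 54.8 to 85.8) and 45 of 110 negative cells (40.9%, 31.6 to 50.7). The shares were 69.4% and 38.2% at 50000 reads per cell, and these intervals too did not overlap. These intervals and those that follow cover counting error over cells pooled from 3 plates, and are no test between the groups. The gap was not seen in each part when cells were divided by Cnmd, a division made after the values were seen. With Cnmd at 10 CPM, 18 of 28 positive and 39 of 76 negative cells had Pth1r at 10 CPM. Their intervals (44.1 to 81.4 and 39.6 to 62.96) overlapped. Without Cnmd the numbers were 5 of 8 and 2 of 34. Those intervals (24.5 to 91.5 and 0.72 to 19.7) did not overlap. Levels of Pth1r were 577 and 454 CPM on plate 3, 1302 and 831 on plate 4 and 2255 and 462 on plate 1, larger in positive cells on all 3 plates. The log2 fold of 0.55 was below the limit for a call, and in cells with at least 2000 genes and 200000 reads it was -0.755. Pannexin 3 (Panx3), a channel of maturing cartilage cells and osteoblasts, was found in 14 of 36 against 14 of 110 cells (38.9% and 12.7%), with levels in opposite directions on plates 3 and 4. None of the 9 compared genes of hedgehog, PTH and FGF signalling was called.

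**Figure D3:**
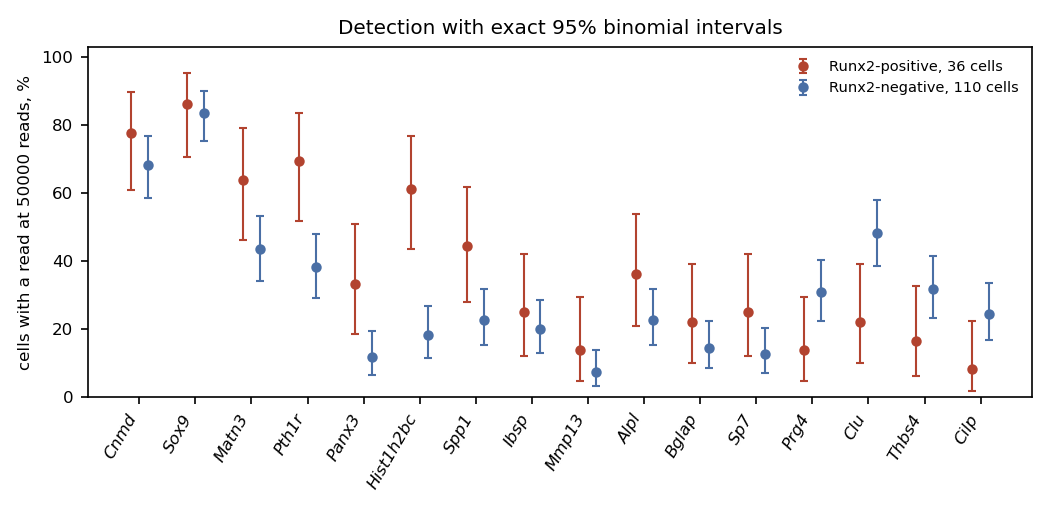
Share of Runx2-positive (36) and Runx2-negative (110) cells with a read of each gene after thinning every cell to 50000 reads, with exact 95% binomial intervals. Pth1r and Hist1h2bc have intervals that do not overlap and are higher in positive cells, while the cartilage genes Cnmd and Sox9 overlap. Hist1h2bc was chosen after its values were seen, so its gap follows from that choice. Positive cells held more genes at this depth as well. The intervals cover counting error over cells pooled from all plates and are no test between the groups.

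Partners and fellow factors of Runx2 had 1 call. Of 18 list members 10 were compared, none was higher and, beside 6.72% of all genes, 1 was lower, Foxo1, a forkhead factor, with a median of -0.25. Cbfb, the partner subunit, had 52.9 and 57.3 CPM on plate 3 and 46.6 and 60.1 on plate 4. Osterix (Sp7), the osteoblast factor that acts after Runx2, had 13.8 and 29.4 CPM on plate 3 and 172.1 and 72.2 on plate 4. It reached 10 CPM in 9 of 36 positive and 14 of 110 negative cells. Runx3, the family member of maturing cartilage, had 107.7 and 142.9 CPM on plate 3 and 227.5 and 259.3 on plate 4, and was found in 61.1% of positive and 29.1% of negative cells. Runx1 went in opposite directions on the plates.

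Genes of the joint surface were lower in Runx2-positive cells on both plates. Of 10 members, 7 were compared and 6 were lower, where 6.72% of all genes were, and none was higher. Their median log2 fold was -2.15 against 0.09 for all genes. The plate medians were -2.02 on plate 3 and -2.36 on plate 4. The list was drawn up with earlier results of these cells known, so its count is not independent evidence of its direction.

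Lubricin (Prg4), the boundary lubricant of articular cartilage, had 1589 CPM in positive and 6438 in negative cells on plate 3, and 786 and 5721 on plate 4. On plate 1 it was 0 in the 2 positive cells and 5049 in negative cells. Positive cells were lower on each plate, and the log2 fold over plates 3 and 4 was -2.36. It was found in 6 of 36 positive cells (16.7%, 6.37 to 32.8) and 36 of 110 negative cells (32.7%, 24.1 to 42.3), and above 1000 CPM in 2 and 27 cells. The median of the cells with a read was 53.5 CPM in positive and 9166 in negative cells. Counted from the other side, Runx2-positive cells were 5 of 41 cells with Prg4 at 10 CPM (12.2%, 4.08 to 26.2) and 31 of the cells without it (27.4%, 19.5 to 36.6).

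Clusterin (Clu), a secreted chaperone abundant at the joint surface, had 3021 and 6665 CPM on plate 3, 172.5 and 7287 on plate 4, and 0 and 3945 on plate 1. It was found in 10 of 36 positive and 56 of 110 negative cells. Its log2 fold was -2.13, but -0.225 and not called in cells with at least 2000 genes and 200000 reads. In those cells 3 of 8 joint surface genes were lower, beside 15.8% of all genes. Cilp, a matrix protein of the middle zone of articular cartilage, had 756 and 1929 CPM on plate 3 and 0.54 and 1430 on plate 4. In positive cells 1 cell gave 80.3% of its reads, that of well D1 named above. Thrombospondin 4 (Thbs4), a matrix protein of cartilage and tendon, had 112.1 and 1222 CPM on plate 3 and 445 and 841 on plate 4. Without plate 3 its log2 fold of -1.88 became -0.99 and was not called. Vitrin (Vit), a matrix protein, had 73.03 and 576 CPM on plate 3 and 88.01 and 210.7 on plate 4, and Abi3bp, a collagen-binding matrix protein, 71.5 and 273.7, then 9.17 and 51.04. Cilp2 had a log2 fold of -2.19 but missed the limit on plate 4, where it had 392 and 499 CPM. Gdf5, Erg and Sema3c were not compared.

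**Figure D4:**
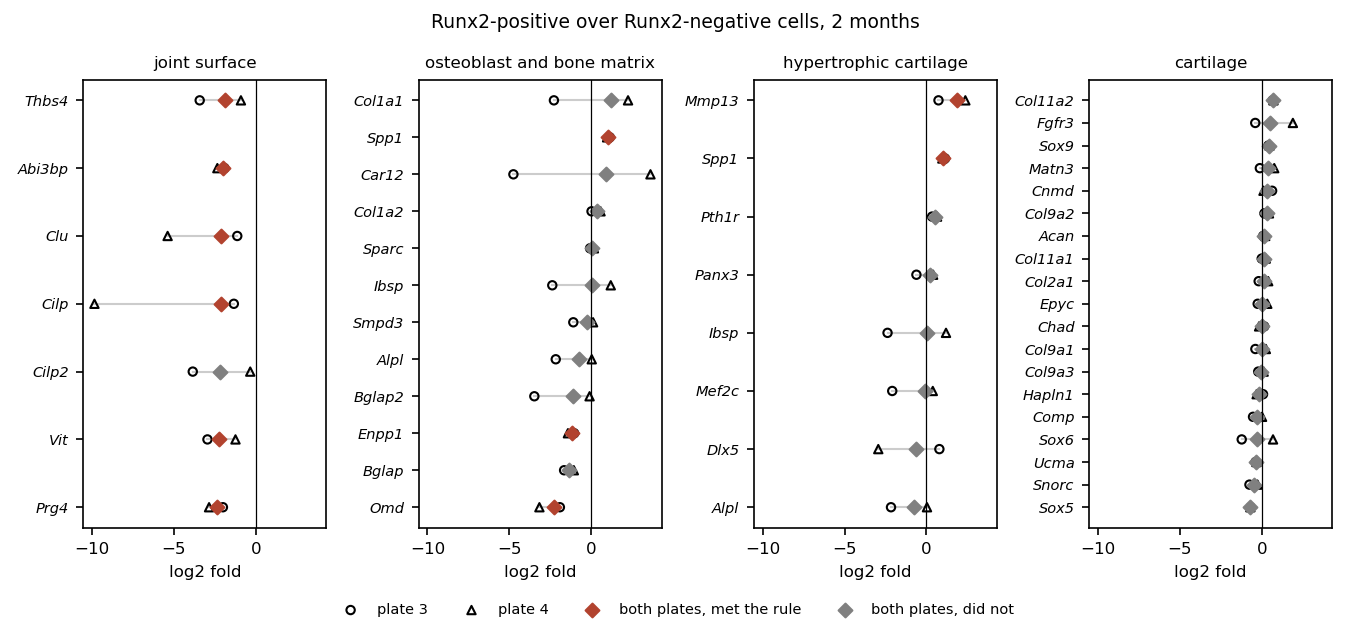
Log2 fold of Runx2-positive over Runx2-negative cells for the compared genes of 4 lists, on plate 3 (circles), plate 4 (triangles) and for the mean of both (diamonds, red where the call rule was met). All 7 joint surface genes lie below 0 on both plates, and none of the 19 cartilage genes met the rule.

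Summed over the 10 joint surface genes, positive cells had a median of 222.5 CPM, from 0 to 37486, and negative cells 2329 CPM, from 0 to 88551. On plate 3 the medians were 431 and 7356 CPM and on plate 4 210 and 1189. The ranges overlapped on each plate. On plate 1 the order was reversed, with 1382 CPM over 2 positive cells and 0 over 11 negative cells. At least 3 of 7 joint surface genes reached 10 CPM in 5 of 36 positive cells (13.9%, 4.67 to 29.5) and 40 of 110 negative cells (36.4%, 27.4 to 46.1). On plate 3 this was 2 of 14 and 26 of 55 cells, and on plate 4 it was 2 of 20 and 12 of 44. An alternative added after seeing the data took cells with 0 reads of Prg4. Among these cells 3 of the genes were compared and all 3 were lower, where 8.64% of all genes were, with a median of -3.26. Cilp had 15.4 and 2.20 CPM there and was not called.

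**Figure D5:**
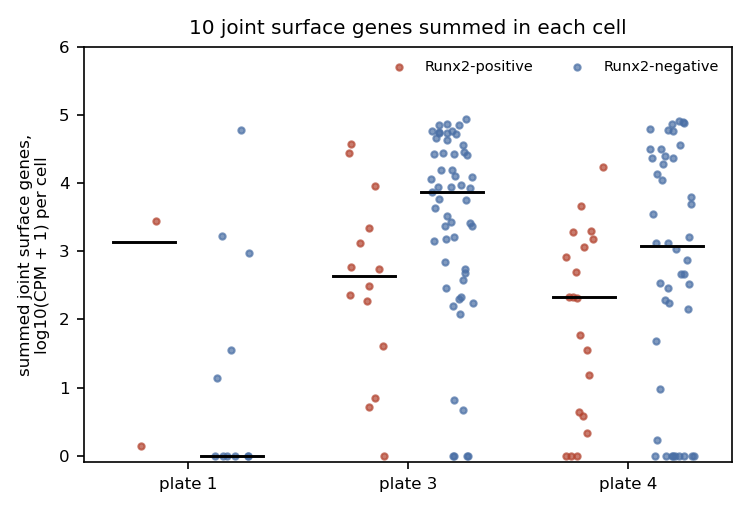
Summed CPM of 10 joint surface genes in each cell, as log10(CPM + 1), by plate and group, with medians as bars. The positive cells lie lower on plates 3 and 4 (medians 431 and 210 CPM against 7356 and 1189), with overlapping ranges, and plate 1 has 2 positive cells.

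Among fibrous tissue genes, decorin (Dcn), a small proteoglycan that binds collagen, was lower, with 860 and 5227 CPM on plate 3, 254.9 and 1455 on plate 4 and 293 and 944 on plate 1. It was found in similar shares of positive (66.7%) and negative cells (70%), and its log2 fold was -2.58. Among cells with 0 reads of Prg4 the log2 fold was -0.89 and no longer called. Dermatopontin (Dpt) was the other lower gene of this list, of 10 compared. Of 7 compared BMP and TGF-beta genes 2 were lower, where 6.72% of all genes were, the receptors Tgfbr2 and Bmpr1a. The direction of Bmpr1a turned in 3 of 14 alternatives. Tgfbr2 had 4.54 and 297 CPM on plate 3 and 114.1 and 293 on plate 4. Of 5 compared Wnt genes the secreted inhibitor Frzb was lower, and Wif1, another secreted inhibitor, was found in 11 of 36 positive and 63 of 110 negative cells without meeting the rule. Osteoprotegerin (Tnfrsf11b), the decoy receptor that restrains osteoclasts, was lower, with 186.9 and 670 CPM on plate 3 and 90.9 and 220.6 on plate 4, and its partner ligand RANKL (Tnfsf11) had a read in 0 positive and 1 negative cell.

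The counts of the other lists stand beside 9.86% of all genes higher and 6.72% lower. Of 19 immediate early and heat shock genes 2 were lower, the near-identical Hspa1a and Hspa1b, whose reads cannot be told apart with certainty. In glycolysis 1 of 10 was higher, the hexokinase gene Hk2. Collagen processing (18 compared), cell cycle (1), the surface genes used for sorting (2) and marrow stroma (1) had no call. Cspg4, a pericyte marker that cartilage cells also carry, was lower, but with all 3 plates its log2 fold was 0.68. Cd200, a sorting marker, had 1.00 and 321 CPM on plate 3 and 409 and 142.5 on plate 4.

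The 12 genes with the highest folds after these lists were Adcy9, Rnd3, Ccdc112, Pank3, Med9, Nme7, Sft2d2, Unc5b, Tgs1, Spats2, Cul4a and Gak. They were found in 19.4% to 30.6% of positive cells, and 1 cell gave between 43.4% and 93.2% of the positive reads of each. Adcy9, an adenylate cyclase, led with 305 and 2.35 CPM on plate 3 and 77.9 and 0 on plate 4, found in 7 of 36 positive cells. The 12 lowest were Ece1, Mum1, Creb5, Adgrg2, Sulf2, Tob2, Krit1, Sparcl1, Gigyf1, Mon2, Gde1 and Ndufa9. Ece1, the endothelin-converting enzyme, had 0 and 58.8 CPM on plate 3 and 0.12 and 59.7 on plate 4. Sparcl1, a matricellular protein, had 38.7 and 522 CPM on plate 3 and 0 and 511 on plate 4, and was found in 5.56% of positive and 21.8% of negative cells.

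Called in either direction were 560 genes (16.6% of those compared). Of these, 53 were found in at least 50% of the cells of the group where they were higher. This set of 53 and its examples were chosen after their values were seen. Each gene entered through the cells where it was higher, so its detection there is no separate result. How many compared genes were as widely detected is not given here. The histone gene Hist1h2bc had 202.4 and 95.2 CPM on plate 3 and 270 and 94.2 on plate 4, and was found in 22 of 36 positive and 23 of 110 negative cells, 61.1% and 18.2% after thinning. Its log2 fold of 1.31 was 0.84 and not called with plate 1 added, 0.71 without plate 3 and 0.40 without plate 4. Prosaposin (Psap), a lysosomal protein, had 425 and 183.2 CPM on plate 3 and 407 and 117.7 on plate 4. The phosphodiesterase gene Pde4b had 992 and 305, then 1067 and 135.9 CPM. The factor Nfatc1 had 563 and 196.2, then 300.2 and 120.6 CPM. Lower genes included cyclin D2 (Ccnd2), with 24.6 and 1145, then 369 and 756 CPM, and matrix Gla protein (Mgp), a mineralisation inhibitor, with 2078 and 3588, then 2728 and 7933 CPM.

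The same Runx2 limits gave 6 positive and 60 negative cells at postnatal day 3, and 5 positive and 10 negative cells at 24 months. Cells of each age were summed without regard to plate, so a call there asked for no agreement between plates. With so few cells as well, 23.9% of genes were higher and 29.9% lower at postnatal day 3. At 24 months it was 43.4% and 40.4%, so single calls at these ages carry little. Prg4 was lower at both ages, with 36.8 and 519 CPM at postnatal day 3 and 0 and 3892 at 24 months. Clu had 333 and 331 CPM at postnatal day 3 and was at 0 in the 5 positive cells of 24 months. At 24 months Alpl had 2567 and 105.7 CPM, Ibsp 2485 and 813, Bglap 1762 and 484 and Pth1r 768 and 55.8 CPM, each higher in positive cells. At that age Spp1, at 6480 and 9139 CPM, and Col1a1, at 18740 and 22992, were not called, and Enpp1 was lower. All 5 positive cells of 24 months held Ibsp and Spp1, and none held Cnmd, which was at 0 in all 15 passing cells of that age. The differences between ages were not tested.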

How the data were processed

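A single table with a column for each cell was used. Its deposited values are expected counts of reads per gene, which the authors estimated with RSEM. Per the submitters' processing notes the tools were bcl2fastq 2.18, STAR 2.4 and RSEM 1.2.21 with GRCm38.p6, and the annotation release is not given in the sources used here. Values were rounded to whole numbers (14.8% of those above 0 were not whole). Cells were matched to their labels by age, plate, well position and index bases, which left out 1 column. The 92 spike-in rows stayed out of totals, and CPM were computed over the other rows. Repeated symbols held 0.473% of reads.

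The groups, limits and fold rule are given with the results. Genes named are Runx2, members of 17 gene lists and 10 marker lists, and the 12 highest and 12 lowest called folds without predicted genes, pseudogenes and numbered symbols. Hist1h2bc, Psap and the other widely detected called genes were picked after their values were seen. The members and lists were chosen with earlier results of these data known. Coordinates come from GENCODE annotation of GRCm38. Thinning drew 50000 reads per cell without replacement. The comparison was tested on simulated data. There it found genes that were changed and also called genes that were not, more of them lower than higher. The changed genes shifted the totals there and moved unchanged genes lower, so the share called lower is no measure for the real cells. That shift does not account for the unchanged genes called higher. A count of calls alone shows no difference between the groups. Alternatives changed the Runx2 limit, cell filter, averaging, TMM factors (edgeR 4.0.16, R 4.3.3), pseudocount, gene filter and plates. Other software was pandas 2.3.3 with numpy 2.4.6, scipy 1.17.1 for intervals and matplotlib 3.10.9, under Python 3.11.15.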

Additional observations from a re-analysis of the deposited data

Results flagged for a closer look

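Among called list members, 2 genes were lower in Runx2-positive cells at 2 months and higher at another age. The limits of level, detection and fold were the same there, but cells were summed without regard to plate. Osteomodulin (Omd), a proteoglycan of mineralised tissue, had a log2 fold of 8.79 at 24 months, where it was found in 3 of 5 positive and 0 of 10 negative cells, so that its size depends on the 1 CPM added, against -2.26 at 2 months. The BMP receptor gene Bmpr1a had a log2 fold of 1.18 at postnatal day 3, where 2 of 6 positive and 19 of 60 negative cells had a read, against -1.67 at 2 months. The 2-month fold of Bmpr1a itself turned direction in 3 of 14 alternatives, with a range from -2.37 to 1.93. Neither difference between ages was tested, and each age counts as 1 sample.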

How the results depend on the processing

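No paired test was made, since the result comes from no test. The groups were set against each other within each plate, and a call asked for the same direction on plates 3 and 4. In the main comparison 333 genes were higher (9.86% of those compared) and 6.72% were lower. Settings are set against it by the number of genes called, and their percents have different denominators, since each setting compared another number of genes. With all 3 plates 98 were higher (3.19%) and 4.14% lower. Of cells with at least 2000 genes and 200000 reads 19 of 43 (44.2%) were positive, and there 576 genes were higher (12.1%) and 753 lower (15.8%), of which 110 of the lower genes were also lower in the main comparison. With no minimum level or detection 960 were higher (3.92%) and 2465 lower (10.1%). Without the cell with most reads of a gene in each group and plate, an alternative chosen after seeing the data, 4.53% were higher and 408 lower (16.3%). Leaving out a plate gave 8.43% to 9.97% higher and 9.92% to 14.2% lower, the last being 407 genes without plate 4. Leaving out plate 1 repeats the main comparison, which does not use it, and gives no value of its own. Without plate 3 only 72 of the 333 higher genes met the rule again, and without plate 4 only 65. The median log2 fold of joint surface genes stayed below 0 under every alternative run, at -2.74 to -2.57 with plate 3 or 4 left out, -1.65 in cells with at least 2000 genes (3 of 8 lower), -3.81 without the cell with most reads and -3.26 in cells with 0 reads of Prg4. That of cartilage genes was 0.36 with all plates, -0.49 with 2000 genes and 0.48 to 0.65 with plate 3 or 4 left out. That of hypertrophic genes was -0.67 with 2000 genes, -0.45 without the cell with most reads and 0.10 to 0.60 with plate 3 or 4 left out. That of bone genes was -1.12 with Runx2 at 100 CPM or more, 0.44 with 1 read or more and -0.25 to 0.45 with plate 3 or 4 left out. In the leave-out of plate 3 or 4, plate 1 entered with 2 positive cells, and the log2 fold then ranged from 0.030 to 0.052 for Enpp1, -0.55 to 0.099 for Tnfrsf11b, 1.85 to 1.926 for Bmpr1a, 1.42 to 1.504 for Cspg4, -0.32 to 1.02 for Rnd3, -1.40 to 0.41 for Gak, 1.83 to 4.01 for Tob2, -0.294 to -0.290 for Bhlhe40 and -0.53 to 0.305 for Spp1. With all plates Bmpr1a was 1.08, Cspg4 0.68 and Tob2 1.57. Dpt was 1.06 with Runx2 at 1 read or more and 2.32 with 2000 genes, Spp1 was -0.044 without the cell with most reads, and in cells with 0 reads of Prg4 Cilp was 2.36, Tnfrsf11b 0.94 and Frzb 0.055. The cause of these changes was not tested.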
